A study of Bos taurus with 8 samples.

Results

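The genes described here are 43 components of the PI3K, AKT, mTOR, FOXO and AMPK signalling network. They were chosen by gene symbol: a gene entered when the name printed for a probe in the scanner files was one of the 43, and the brightest probe stood for the gene. Of the 43, 39 had at least 1 probe under that name (92 probes in all), and 36 passed the filter on dim probes, out of 12617 genes tested. The cells were primary bovine mammary epithelial cells, isolated from the udder tissue of 1 lactating Holstein cow and used at the fifth passage, and total RNA from them was read on 8 one-colour Agilent arrays. On 3 arrays the cells carried the shRNA EEF1D-1357 and on 3 the shRNA EEF1D-1893, both directed against EEF1D, the guanine-nucleotide exchange subunit of the translation elongation factor eEF1; 2 control arrays are labelled as having no shRNA. No group with a non-targeting shRNA is named, all cells come from a single animal, and the labels do not say whether replicates were separate cultures, so every p-value measures only the spread between these arrays, which may be technical. The comparison asks how the network's transcripts differ when EEF1D is knocked down.

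Insulin and growth factors act on this network through receptor adaptors and PI3K, which makes the lipid signal that brings PDK1 and AKT to the membrane. AKT restrains FOXO transcription factors, the kinase GSK3 and the TSC complex; TSC in turn keeps the small GTPase RHEB from switching on mTORC1, which promotes translation. AMPK senses low energy and opposes mTORC1, and in the mammary gland the mTORC1 arm is known for its part in milk protein synthesis. Most of this regulation is carried by phosphorylation and lipid signals, which an expression array does not read.

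The array reads each transcript through a 60-base probe, and the probes of 5 members on which the results turn are shown so that a reader can see which stretch was measured. FOXO1 and FOXO3 are close relatives, and the longest stretch their probes share is the 10 bases in capitals; the other probes are in lower case throughout. Positions are those in the scanner files, on the cattle build Btau_3.1, and exon annotation of that build was not used here. The FOXO1 probe lies at chr12:21512928-21512987 on the plus strand, FOXO3 at chr9:43365170-43365229 on the minus strand and MTOR at chr16:39252398-39252457 on the plus strand. The PDPK1 probe spans chr25:2649151-2649621 on the plus strand and the second RHEB probe chr4:118307675-118308397 on the minus strand, each over more genome than its 60 bases. The sequences, written 5′ to 3′ as the files give them, are these.
FOXO1: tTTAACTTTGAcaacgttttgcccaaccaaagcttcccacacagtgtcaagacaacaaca
FOXO3: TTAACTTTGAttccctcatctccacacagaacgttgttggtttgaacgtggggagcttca
PDPK1: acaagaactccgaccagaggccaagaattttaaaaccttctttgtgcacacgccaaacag
MTOR: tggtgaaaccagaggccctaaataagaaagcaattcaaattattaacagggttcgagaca
RHEB: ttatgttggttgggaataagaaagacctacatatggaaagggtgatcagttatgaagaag

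Levels are given as scaled log2 intensity, the log2 of the processed signal minus the 75th percentile of its array, so that 0 is the 75th percentile and a difference of 1 is a doubling. The 75th percentile lay between an intensity of 1265 and 2078, and 60.6% to 71.5% of probes were well above background on an array. The scan slides held 1 shRNA each: control replicate 2 was on slide 1 together with all 3 arrays of EEF1D-1357, and control replicate 1 was on slide 2 together with all 3 of EEF1D-1893. By its brightest probe, the knocked-down gene itself read 7.13 and 6.15 on the controls, 5.98, 5.87 and 5.11 with EEF1D-1357 and 6.001, 5.75 and 5.78 with EEF1D-1893. Every shRNA array was below both controls for this probe, with a log2 fold change of -0.89 (SE 0.32) that did not pass the limma test (adjusted p = 0.243). The second probe gave -0.88 (SE 0.31), and its shRNA arrays were also all below both controls. Its listed position, chr14:938160-938333, overlaps that of the brightest probe, chr14:938301-938360, so the 2 readings may not be independent. The third gave -1.16 (SE 0.48) and the fourth, a dim one, -0.32 (SE 0.33), and in both of these the shRNA arrays overlapped the controls. Leaving out control replicate 1 gave -0.40 for the brightest probe, and leaving out control replicate 2 gave -1.38 (adjusted p = 0.0378). In every test with a control left out, here and below, the spread comes from the shRNA arrays alone, and the single remaining control is assumed to vary as they do. Without control replicate 2 that remaining array is control replicate 1, which had the lowest median correlation with the other arrays (0.968, against 0.976 to 0.981).

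Cell type markers were read beside these values, since in bulk RNA fewer cells of a type and less RNA per cell cannot be told apart. Of 8 luminal markers, 6 were well above background on all 8 arrays, while ELF5 was so on 1 array and PRLR on none. The summed level of the luminal list, on a linear scale where 1 is the 75th percentile, was 832 on control replicate 1 and 454 on control replicate 2, against 420 to 494 on the shRNA arrays. This luminal sum is mostly KRT8, KRT18 and KRT19, all higher on control replicate 1 than on any other array. GATA3 was also highest there (2.464, against 2.009 on control replicate 2). CDH1 ran the other way and was lowest on control replicate 1 (3.602, against 3.949 on control replicate 2). EPCAM was also lower on control replicate 1 than on control replicate 2. For the 7 basal and myoepithelial markers the sum was 295 and 308 on the controls and 151 to 323 with an shRNA. Of these markers, 5 were well above background on every array. KRT14 varied far more than the sum: it read 4.85 and 6.93 on the controls, 5.26, 5.08 and 3.23 with EEF1D-1357 and 1.97, 0.21 and 6.42 with EEF1D-1893. It was highest on control replicate 2 and EEF1D-1893 replicate 3. Fibroblast markers summed to 117 and 232 on the controls and 108 to 156 with an shRNA, with 4 of 8 well above background throughout. That sum is mostly VIM, which read 7.84 and 6.83 on the controls and 6.73 to 7.27 with an shRNA. The fibroblast genes COL1A2 and LUM ran another way. COL1A2 read -3.65 on control replicate 1, 0.24 on control replicate 2, -7.25 to -6.63 with EEF1D-1357 and -6.78, -1.77 and 0.83 with EEF1D-1893. LUM read -6.81 and -2.14 on the controls, -7.46 to -5.47 with EEF1D-1357 and -7.35, -4.38 and -1.81 with EEF1D-1893. Both were well above background on 4 arrays, and both were high on control replicate 2 and EEF1D-1893 replicate 3. Leukocyte markers, 5 of 7 of them well above background throughout, summed to 5.60 and 7.84 on the controls and 4.53 to 7.52 with an shRNA. Of 5 endothelial markers 4 were well above background on no array, and none of the 4 adipocyte markers was so on all arrays. What these differences in makeup contribute to the values below was not tested.

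No member changed past the threshold (adjusted p under 0.05, limma, Benjamini-Hochberg over all genes) in any comparison, against a background of 0% of all genes. Both shRNAs together against control gave 11 of the 36 members an unadjusted p under 0.05, 30.6% of them, where 16.9% of all genes had one. The 2 members on the higher side were RHEB and RRAGA, 5.56% of the members against 7.42% of all genes. On the lower side there were 9, 25% of the members against 9.52% of all genes: PIK3R2, PDPK1, GSK3B, TSC1, MTOR, EEF2K, FOXO1, FOXO4 and PRKAA2. The median log2 fold change was -0.13 over the members and -0.07 over all genes. With each array scaled by its median in place of the 75th percentile, 7 members had an unadjusted p under 0.05, 2 higher and 5 lower, and the 2 medians were -0.05 and 0.01; all genes then split into 10.2% higher and 6.74% lower. Groups did not overlap for 12 members, which is 33.3% of the members against 16.9% of all genes: 3 were higher (7.78% of all genes) and 9 lower (9.07% of all genes). Estimates lay below 0 for 24 members, where 57.1% of all genes did. With only probes well above background on all 8 arrays, 10 members had an unadjusted p under 0.05 in limma, where 19.3% of all genes had one. No test compared the members with other genes, and the members were chosen with earlier results of these data known.

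**Figure D1:**
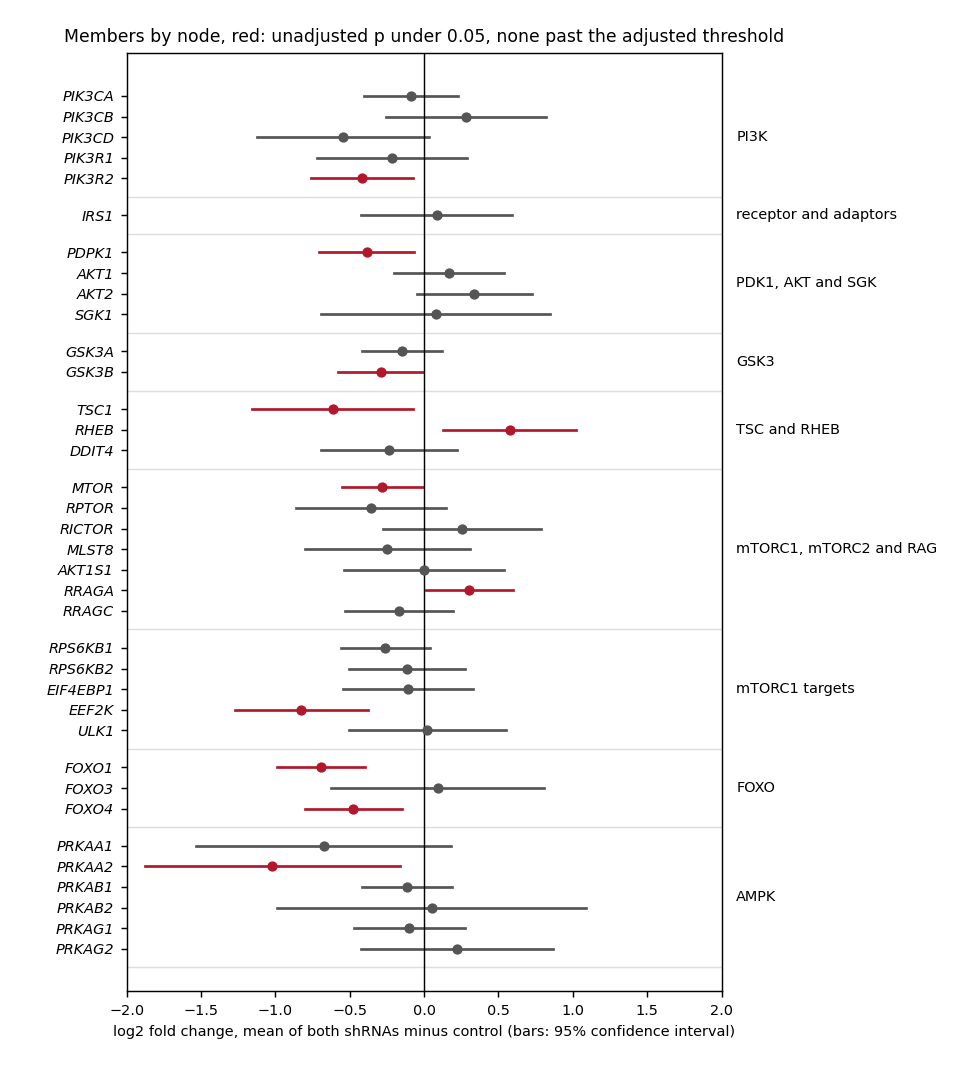
Log2 fold change of the 36 measured members, mean of both shRNAs minus control (x axis, points), with 95% confidence intervals (bars), ordered by node of the network (y axis); red marks an unadjusted p under 0.05. The 11 red members include 9 below 0 and 2 above it, and none has an adjusted p under 0.05.

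PI3K consists of a catalytic p110 subunit and a regulatory p85 subunit. Its 5 measured subunits had log2 fold changes from -0.54 to 0.28, and 1 of the 5 had an unadjusted p under 0.05. That gene was PIK3R2, which encodes the regulatory subunit p85 beta: it read 2.57 and 2.58 on the controls, 2.41, 2.45 and 2.22 with EEF1D-1357 and 2.14, 1.97 and 1.74 with EEF1D-1893. By this brightest probe all 6 shRNA arrays were below both controls, and the EEF1D-1893 arrays were below all EEF1D-1357 arrays. Its log2 fold change was -0.42 (SE 0.15, adjusted p = 0.236) for both shRNAs and -0.62 (SE 0.16, adjusted p = 0.225) for EEF1D-1893 alone. A dimmer second probe read -3.64 and -3.37 on the controls and -4.29 to -3.37 with an shRNA, and all groups overlapped. That probe gave -0.24 (SE 0.21) for both shRNAs and -0.43 (SE 0.24) for EEF1D-1893.

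PIK3CD, the p110 delta catalytic subunit best known from leukocytes, read -2.97 and -2.73 on the controls, -3.16, -3.14 and -3.46 with EEF1D-1357 and -4.07, -3.34 and -3.20 with EEF1D-1893. The groups did not overlap, but 1 EEF1D-1893 array lay far below the others, and the log2 fold change for that shRNA was -0.69 (SE 0.28, adjusted p = 0.340). Only 1 PIK3CD probe passed the filter, and its listed position covers 17 bases, chr16:40848679-40848695. The other PIK3CD probes averaged -6.18, -6.49 and -7.70 and were well above background on 1, 1 and 0 arrays. The PIK3CD value therefore rests on a single probe. PIK3CA and PIK3CB, the widely expressed catalytic subunits p110 alpha and beta, had log2 fold changes of -0.09 (95% interval -0.41 to 0.23) and 0.28 (-0.26 to 0.82). PIK3R1, the main p85 subunit, had one of -0.22 (-0.72 to 0.29). Without control replicate 1 the PIK3CB value was -0.17, and without control replicate 2 it was 0.73. These are values of its brightest probe. With both controls, the values of its 4 probes ran from 0.03 to 0.28. The 1 probe of PIK3R3, a further regulatory subunit, was well above background on no array. Upstream of PI3K, the adaptor IRS1 read -2.53 and -3.16 on the controls, -2.83, -2.88 and -2.99 with EEF1D-1357 and -2.30, -2.72 and -2.84 with EEF1D-1893, and the groups overlapped. The insulin receptor INSR was well above background on 3 of 48 probe readings and was not tested, and IRS2 was not analysed here.

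PDPK1, the kinase PDK1 that activates AKT, SGK and S6 kinase, was the member of the next node with the smallest p. It read 0.23 and -0.15 on the controls, -0.36, -0.37 and -0.34 with EEF1D-1357 and -0.42, -0.32 and -0.30 with EEF1D-1893. The 6 shRNA arrays lay within a narrow band below both controls, and the controls themselves were further apart than any 2 shRNA arrays. The log2 fold change was -0.39 (SE 0.14, adjusted p = 0.236), with -0.39 for EEF1D-1357 and -0.38 for EEF1D-1893. Without control replicate 1 it was -0.20 and -0.58 (adjusted p = 0.0220) without control replicate 2. AKT2, the AKT isoform tied to insulin-stimulated glucose uptake, was higher on all shRNA arrays (-4.11 to -3.59) than on the controls (-4.28 and -4.19), with a log2 fold change of 0.34 (95% interval -0.05 to 0.72). AKT1, the growth-related isoform, and SGK1, an AKT-like kinase under mTORC2, had overlapping groups and log2 fold changes of 0.17 and 0.08.

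GSK3 is inhibited by AKT, and its 2 isoforms both had negative log2 fold changes. GSK3B read 4.36 and 4.15 on the controls, 3.87, 3.90 and 3.92 with EEF1D-1357 and 4.05, 3.93 and 4.09 with EEF1D-1893. By this brightest probe each shRNA array was below both controls, with a log2 fold change of -0.29 (SE 0.12, adjusted p = 0.285), which was -0.19 without control replicate 1. The other GSK3B probes gave -0.19 (SE 0.13) and 0.08 (SE 0.15), so its probes lay on both sides of 0. For GSK3A the value was -0.15 (95% interval -0.42 to 0.12) with overlapping groups, and its second probe had a log2 fold change of 0.39 on the other side of 0.

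TSC1 and TSC2 form the complex that inactivates RHEB, and the estimates of TSC1 and RHEB had opposite signs. TSC1 read -0.34 and -0.48 on the controls, -1.22, -1.36 and -0.69 with EEF1D-1357 and -1.09, -0.60 and -1.17 with EEF1D-1893. All shRNA arrays were below both controls, with a log2 fold change of -0.61 (SE 0.23, adjusted p = 0.256), and its second probe gave -0.37 (SE 0.20). RHEB, the GTPase that activates mTORC1, read 2.74 and 3.46 on the controls, 3.71, 3.74 and 3.75 with EEF1D-1357 and 3.61, 3.66 and 3.57 with EEF1D-1893. Its shRNA arrays were all higher, and the gap between the 2 controls was several times the spread within either shRNA group. The log2 fold change was 0.58 (SE 0.19, adjusted p = 0.223), which is 1.49-fold; without control replicate 1 it was 0.21 and 0.94 (adjusted p = 0.0140) without control replicate 2.

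The second RHEB probe, whose sequence is shown above, had less distance between its controls: it read 0.95 and 1.22 on the controls, 1.81, 1.67 and 1.71 with EEF1D-1357 and 1.68, 1.71 and 1.66 with EEF1D-1893. In the fit over all probes its log2 fold change was 0.62 (SE 0.13), with an unadjusted p of 0.00154 and an adjusted p of 0.130. TSC2 was not among the probe names, but 5 probes filed under an Ensembl transcript are described as tuberous sclerosis 2; they were looked up after the data had been seen. The brightest of these read 3.85 and 3.56 on the controls, 3.22, 3.24 and 3.11 with EEF1D-1357 and 2.84, 3.14 and 2.94 with EEF1D-1893, so that all shRNA arrays were below both controls. Its log2 fold change was -0.63 (SE 0.14, adjusted p = 0.140 over all probes), and the other 4 probes gave -0.72, -0.54, -0.37 and 0.06, the last from a probe well above background on 2 arrays. DDIT4, also called REDD1, a stress-induced activator of the TSC complex, had overlapping groups and a log2 fold change of -0.23 (95% interval -0.69 to 0.22).

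**Figure D2:**
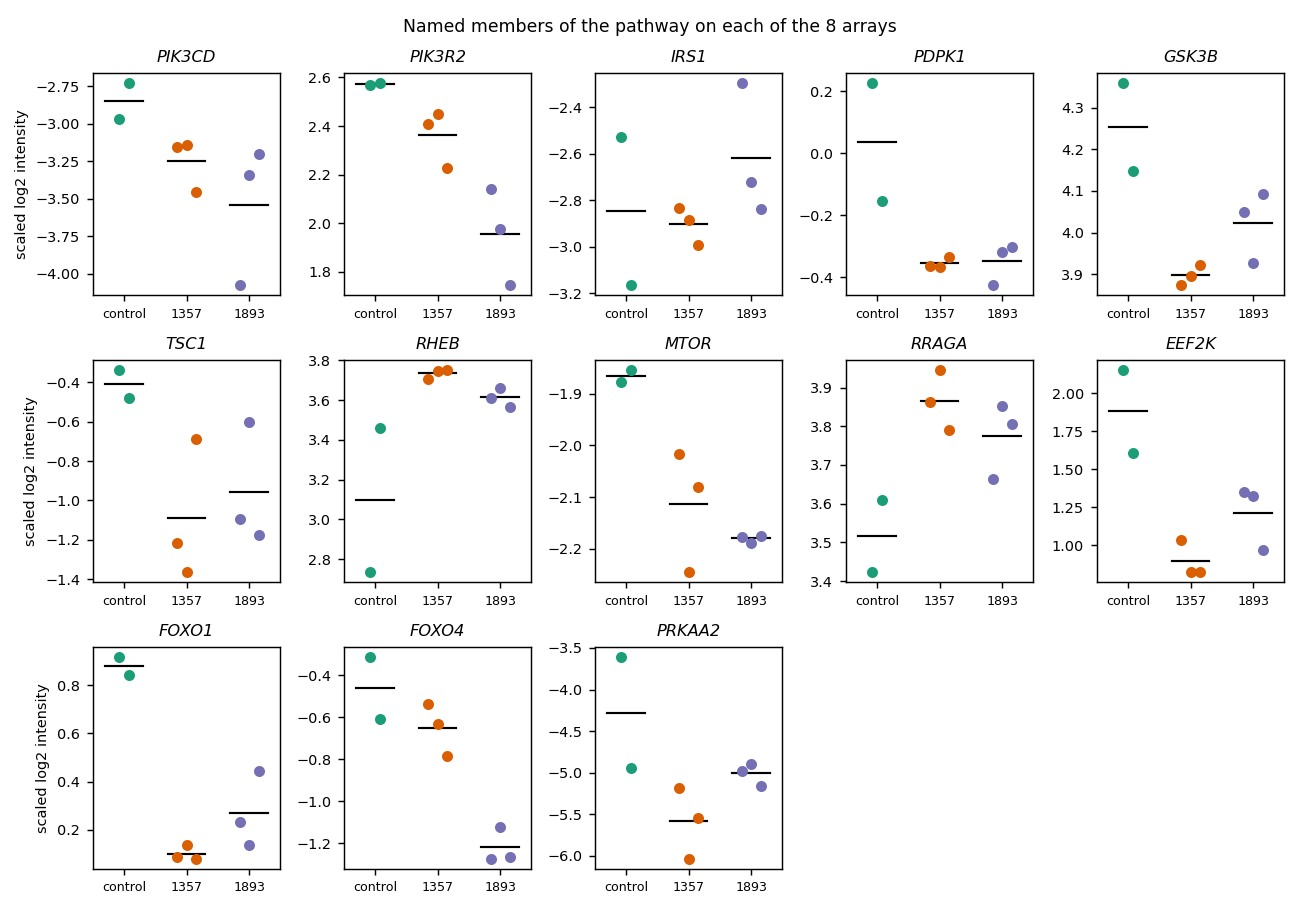
Scaled log2 intensity (y axis) of 13 members on each array, by group (x axis): 2 controls, 3 EEF1D-1357 and 3 EEF1D-1893 arrays as points, with the group mean as a line; y axes differ between panels and do not start at 0. FOXO1 and PIK3R2 have close controls, while the controls of RHEB and PRKAA2 lie far apart.

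mTOR works in complex 1 with RPTOR and in complex 2 with RICTOR, and the RAG GTPases bring complex 1 to the lysosome when amino acids are present. Of 7 measured members of this node, 2 had an unadjusted p under 0.05, on opposite sides of 0. MTOR, the kinase itself, read -1.88 and -1.85 on the controls, -2.02, -2.24 and -2.08 with EEF1D-1357 and -2.18, -2.19 and -2.17 with EEF1D-1893. The controls were close together and above every shRNA array, with a log2 fold change of -0.28 (SE 0.12, adjusted p = 0.287); this corresponds to 82.3% of the control level.

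RRAGA, the RAG A GTPase, read 3.42 and 3.61 on the controls, 3.86, 3.94 and 3.79 with EEF1D-1357 and 3.66, 3.85 and 3.81 with EEF1D-1893. Its groups did not overlap, the log2 fold change was 0.30 (SE 0.12, adjusted p = 0.283), and its other 2 probes gave 0.09 and 0.14; without control replicate 1 the value was 0.21. RRAGC, the partner GTPase, had overlapping groups and a value of -0.17. RPTOR, RICTOR, MLST8 (a subunit of both complexes) and AKT1S1 (the mTORC1 inhibitor PRAS40) had log2 fold changes of -0.36, 0.25, -0.25 and -0.00. In each of these 4 the shRNA arrays overlapped the controls, whose 2 readings were 0.70 to 0.91 apart. DEPTOR, an inhibitor of both complexes, was well above background on 1 of 16 probe readings and was not tested.

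Among proteins that mTORC1 phosphorylates or controls, EEF2K had the smallest p. This kinase blocks elongation factor 2 and is held back by S6 kinase and switched on by AMPK. EEF2K read 2.15 and 1.61 on the controls, 1.04, 0.83 and 0.83 with EEF1D-1357 and 1.35, 1.33 and 0.97 with EEF1D-1893. All 6 shRNA arrays were below both controls; the log2 fold change was -0.83 (SE 0.19, 95% interval -1.27 to -0.38), 56.4% of the control level, with an unadjusted p of 0.00321 and an adjusted p of 0.153. Without control replicate 2 it was -1.10 (adjusted p = 0.0188), and without control replicate 1 it was -0.55.

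EEF2K has 2 probes, at chr25:21139476-21139534 and chr25:21139433-21139492 on Btau_3.1, which share the 17 bases AACTGTCCCCTAGGGCT. The second gave -0.77 (SE 0.17), and because the stretches overlap, the 2 readings are not independent. RPS6KB1, which encodes the S6 kinase p70S6K, read -0.83 and -1.13 on the controls and -1.30 to -1.15 with an shRNA, without overlap, with a log2 fold change of -0.26 (95% interval -0.56 to 0.04); it was -0.11 without control replicate 1 and -0.41 without control replicate 2 (adjusted p = 0.0480). RPS6KB2, the second S6 kinase, EIF4EBP1, the translation repressor 4E-BP1, and ULK1, which starts autophagy, had overlapping groups and values of -0.12, -0.11 and 0.02. EIF4EBP2 was not analysed here.

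FOXO1 had the smallest p of all members. Its value rests on 1 probe, the only one past the filter. FOXO factors switch on genes of gluconeogenesis, cell-cycle arrest and protein breakdown when AKT is inactive. FOXO1 read 0.92 and 0.84 on the controls, 0.09, 0.14 and 0.08 with EEF1D-1357 and 0.23, 0.14 and 0.445 with EEF1D-1893. The controls differed by less than 0.1 and lay well above all 6 shRNA arrays, and the mean was lowest with EEF1D-1357. The log2 fold change was -0.69 (SE 0.13, 95% interval -0.99 to -0.40), 61.9% of the control level, with an unadjusted p of 0.000873 and an adjusted p of 0.143. EEF1D-1357 alone gave -0.78 (SE 0.14) and EEF1D-1893 alone -0.61 (SE 0.14). For both shRNAs the value was -0.66 without control replicate 1 and -0.73 (adjusted p = 0.0241) without control replicate 2.

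FOXO4 read -0.31 and -0.61 on the controls, -0.54, -0.63 and -0.78 with EEF1D-1357 and -1.27, -1.12 and -1.27 with EEF1D-1893. EEF1D-1357 arrays overlapped the controls, and the EEF1D-1893 arrays were below all others. The log2 fold change was -0.76 (SE 0.16, adjusted p = 0.214) for EEF1D-1893 and -0.19 (SE 0.16, adjusted p = 0.535) for EEF1D-1357. For both shRNAs it was -0.48 (SE 0.14, adjusted p = 0.196), with -0.33 without control replicate 1 and -0.62 (adjusted p = 0.0313) without control replicate 2. FOXO3 had overlapping groups, -2.08 and -1.10 on the controls against -2.05 to -1.16 with an shRNA, and a log2 fold change of 0.09 (95% interval -0.62 to 0.81). Its second probe, well above background on 3 arrays, gave -1.38 (SE 0.44).

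AMPK is a trimer of a catalytic alpha, a beta and a gamma subunit. PRKAA2, the alpha 2 catalytic subunit, read -3.61 and -4.94 on the controls, -5.19, -6.04 and -5.54 with EEF1D-1357 and -4.98, -4.89 and -5.16 with EEF1D-1893. The EEF1D-1357 arrays were below both controls and the EEF1D-1893 arrays spanned the lower one; only 1 of the 3 EEF1D-1357 readings was well above background. The log2 fold change was -1.02 (SE 0.36, adjusted p = 0.241), and it was -0.35 without control replicate 1 and -1.69 (adjusted p = 0.0205) without control replicate 2. For PRKAA1, the alpha 1 subunit, the brightest probe read -0.38 and -1.88 on the controls, -1.97, -2.13 and -2.05 with EEF1D-1357 and -1.43, -1.36 and -1.88 with EEF1D-1893, a log2 fold change of -0.68 (95% interval -1.54 to 0.18). It was 0.08 without control replicate 1 and -1.43 (adjusted p = 0.0160) without control replicate 2. The beta subunits PRKAB1 and PRKAB2 had values of -0.11 and 0.05, and the gamma subunits PRKAG1 and PRKAG2 -0.10 and 0.22, all with overlapping groups; PRKAB2 was well above background on 3 arrays. STK11, the kinase LKB1 that activates AMPK, was not analysed here.

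**Figure D3:**
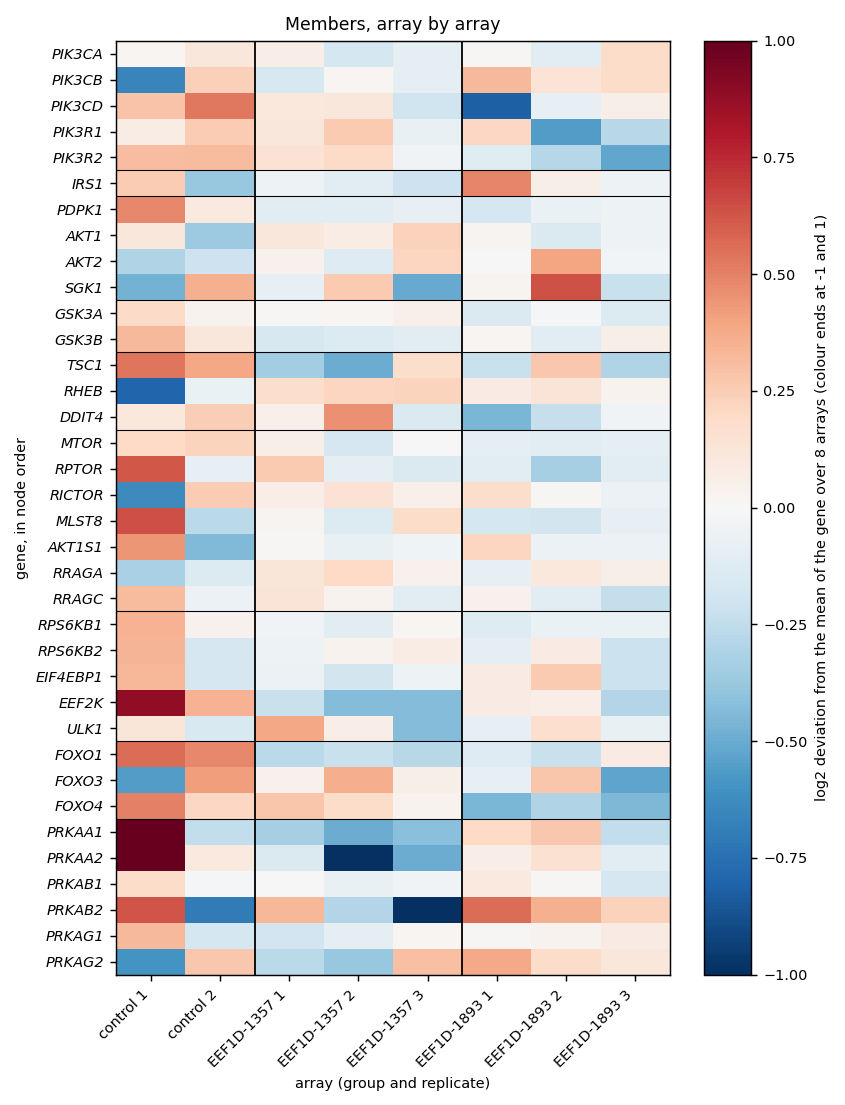
Deviation of each member (rows, in node order) from its own mean over the 8 arrays, in log2 units (colour, ending at -1 and 1), for each array (columns). Control replicate 1 departs furthest for PRKAA1, PRKAA2, RHEB and EEF2K, and FOXO1 is high on both controls.

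Both shRNAs were compared directly, which needs no control array, but each lies on its own slide, so shRNA and slide cannot be told apart there. Of the 36 members, 2 had an unadjusted p under 0.05, 5.56% against 6.4% of all genes, and none an adjusted p under 0.05. FOXO4 was higher with EEF1D-1357 by 0.57 log2 units (SE 0.14, unadjusted p = 0.0044, adjusted p = 0.748) and PIK3R2 by 0.41 (SE 0.15, unadjusted p = 0.0258, adjusted p = 0.748), without overlap of the arrays in either gene. The second PIK3R2 probe gave a difference of 0.38 (SE 0.21), and its arrays overlapped. For FOXO1 the difference was -0.17 (95% interval -0.47 to 0.13), for EEF2K -0.32 (-0.76 to 0.13) and for RHEB 0.12 (-0.33 to 0.57). By their brightest probes all 6 AMPK subunits had estimates below 0 here, from -0.73 for PRKAB2 (95% interval -1.77 to 0.31) to -0.02 for PRKAB1, each with an interval that spanned 0. The PRKAA1 probes lay on both sides of 0 in this comparison, from -0.49 to 0.11. PRKAB2 was well above background on 3 arrays and PRKAA2 on 6. In the arrays of both shRNAs, 5 members lay entirely higher and 5 entirely lower with EEF1D-1357, where 6.77% and 14.8% of all genes did (21.5% in either direction), and 18 estimates were below 0 against 58.4% of all genes. The share of genes with an unadjusted p under 0.05 was 2.58% on the higher and 3.82% on the lower side.

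The comparisons of each shRNA with control share the same 2 control arrays, so their values are given side by side. EEF1D-1357 gave 8 members an unadjusted p under 0.05 (22.2% against 16.2% of all genes): PDPK1, GSK3B, TSC1, EEF2K, FOXO1 and PRKAA2 on the lower side (9.88% of all genes) and RHEB and RRAGA on the higher side (6.29%). EEF1D-1893 also gave 8 (22.2% against 14.1%): PIK3CD, PIK3R2, PDPK1, MTOR, EEF2K, FOXO1 and FOXO4 lower (7.26% of all genes) and RHEB higher (6.86%). Arrays did not overlap the controls for 14 members with EEF1D-1357, 3 higher and 11 lower, where 30.6% of all genes did not (12.3% higher, 18.3% lower). With EEF1D-1893 this held for 16 members, 3 higher and 13 lower, against 28.2% of all genes (13.8% higher, 14.5% lower). Estimates below 0 numbered 27 with EEF1D-1357 (58.4% of all genes) and 24 with EEF1D-1893 (53.1%).

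The 2 controls sat on different slides and differed by more than 0.5 log2 units in 15 of the 36 members. The spread in the fit with slide as a block also comes from the shRNA arrays alone. In that fit 3 members passed the test for both shRNAs, against 5.67% of all genes: FOXO1 (-0.69, adjusted p = 0.0358) and EEF2K (-0.83, adjusted p = 0.0404) fell and RHEB (0.58, adjusted p = 0.0349) rose. There EEF1D-1357 is set against control replicate 2 alone, with 0 members passing (0.222% of all genes), and EEF1D-1893 against control replicate 1 alone, with 10 passing (14.7% of all genes). Within slide 1, EEF1D-1357 minus its control was -0.74 for FOXO1, -0.71 for EEF2K and 0.27 for RHEB. Within slide 2, EEF1D-1893 minus its control was -0.65 for FOXO1, -0.94 for EEF2K and 0.88 for RHEB. The within-slide values had the same sign on both slides for 19 of 36 members, with medians of -0.11 on slide 1 and -0.30 on slide 2.

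**Figure D4:**
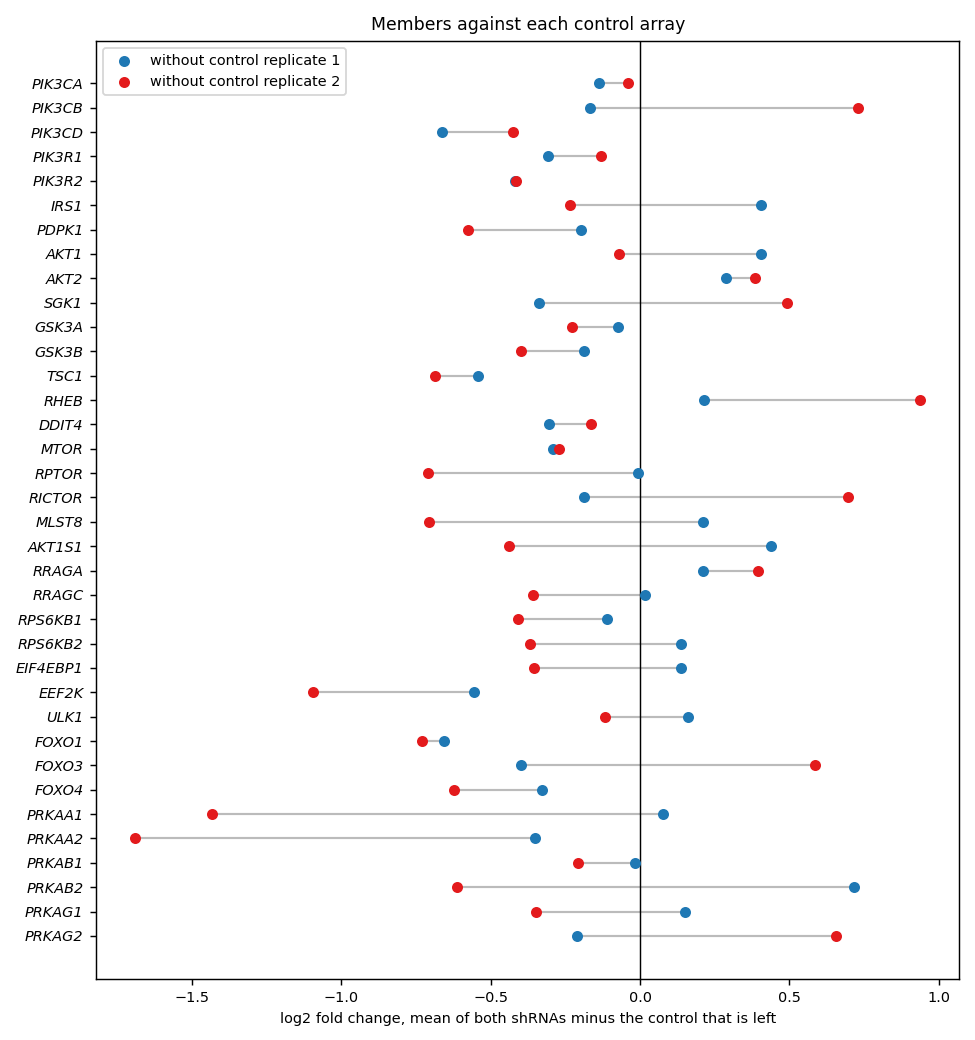
Log2 fold change of each member, mean of both shRNAs minus the control that is left (x axis), without control replicate 1 (blue) and without control replicate 2 (red), by gene (y axis). FOXO1, MTOR and PIK3R2 hardly move, whereas for 16 of 36 members the points lie on opposite sides of 0.

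Without control replicate 2, when the shRNA arrays were set against control replicate 1 alone, the array with the luminal sum of 832, 12 members passed the test for both shRNAs, against 23.3% of all genes; without control replicate 1 none did, against 0.206% of all genes. By shRNA, 10 members passed for EEF1D-1357 (23.2% of all genes) and 10 for EEF1D-1893 (14.7%) without control replicate 2, and 0 for either (0.222% and 0.198%) without control replicate 1. The 12 were PIK3CB, RHEB and RICTOR on the higher side and PDPK1, RPTOR, MLST8, RPS6KB1, EEF2K, FOXO1, FOXO4, PRKAA1 and PRKAA2 on the lower side. RICTOR was 0.70, RPTOR -0.71 and MLST8 -0.71 there, against -0.19, -0.01 and 0.21 without control replicate 1. All these values are of the brightest probe of a gene, and other probes did not always go with it. The second MLST8 probe read -3.845 on control replicate 1 and -4.045 to -3.65 with an shRNA. A PIK3CB probe at chr1:132400001-132406967 read -2.60 on control replicate 1 and -3.20 to -2.68 with an shRNA, opposite to the brightest probe. The PRKAA1 probes are given below. For 20 members the sign was the same without either control. In 15 of these 20 the 2 estimates differed by more than 1.5 times; the 5 in which they did not were PIK3R2, AKT2, TSC1, MTOR and FOXO1.

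FOXO1, FOXO4, MTOR and PDPK1 each had 1 probe past the filter, so no second probe could be set beside their values. Several probes past the filter were available for 22 members, and in 13 of these all probes of the gene lay on the same side of 0. In 9 they did not: IRS1, SGK1, GSK3A, GSK3B, RICTOR, MLST8, FOXO3, PRKAA1 and PRKAG2. PRKAA1 had the most probes, 8, all well above background on all arrays and all assigned to one transcript within chr20:35840214-35847477 of Btau_3.1. The brightest was at -0.68, a second at -0.01, and the other 6 lay above 0, up to 0.63. The probe at chr20:35844856-35844915 read -4.17 and -3.85 on the controls, -3.40, -3.37 and -3.64 with EEF1D-1357 and -3.16, -3.31 and -3.38 with EEF1D-1893. Its shRNA arrays were all above both controls, with a log2 fold change of 0.63 (SE 0.15, unadjusted p = 0.00365, adjusted p = 0.140), the opposite of the brightest probe. A neighbour at chr20:35844988-35845047 gave 0.59 (SE 0.21), and the mean over the 8 probes was 0.20 (SE 0.14). No direction can therefore be given for PRKAA1 from these probes. Among all 30722 probes past the filter, 18.4% had an unadjusted p under 0.05 for both shRNAs, 17.6% for EEF1D-1357, 15% for EEF1D-1893 and 6.24% between the shRNAs, and none an adjusted p under 0.05.

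**Figure D5:**
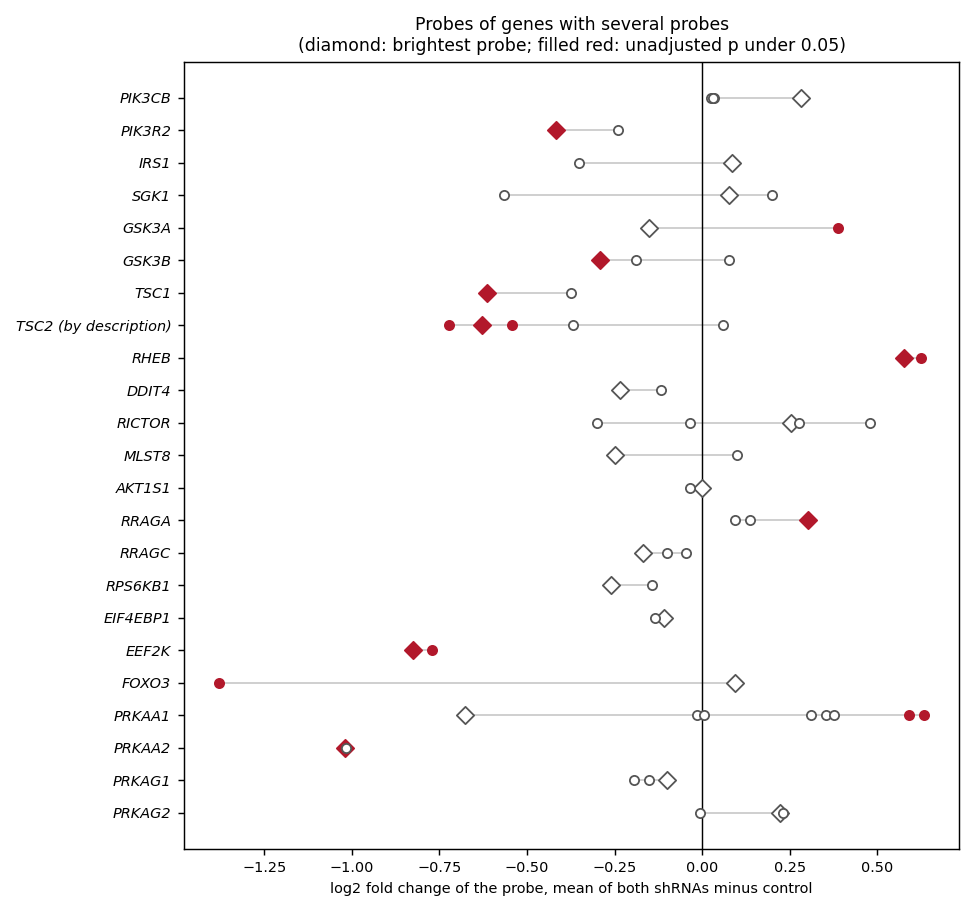
Log2 fold change of each probe, mean of both shRNAs minus control (x axis), for the 22 members with several probes past the filter and for the probes described as TSC2 (y axis). Diamonds mark the brightest probe of a gene and red fill an unadjusted p under 0.05; both RHEB probes lie at about 0.6, and the 8 PRKAA1 probes run from -0.68 to 0.63.

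Beyond the 43, a list of 75 other genes of these pathways held 67 measured genes. None passed the test; 12 had an unadjusted p under 0.05, 6 higher and 6 lower, which is 17.9% against 16.9% of all genes, and the median was -0.03. On the higher side were SLC38A9, the lysosomal arginine sensor of mTORC1 (log2 fold change 0.55, SE 0.14), LAMTOR3, a part of the Ragulator scaffold that holds the RAG GTPases (0.64, SE 0.20), EIF4E, the cap-binding protein freed from 4E-BP1 (0.69, SE 0.21), and CAB39, a scaffold of LKB1 (0.52, SE 0.17). The controls averaged 1.85 ± 0.59 (SD, n = 2) for EIF4E, against 2.49 ± 0.10 (SD, n = 3) under EEF1D-1357 and 2.61 ± 0.06 (SD, n = 3) under EEF1D-1893. The lower side included PIK3C2A, a class II PI3K (-0.78, SE 0.14), ACACA, the AMPK-inhibited acetyl-CoA carboxylase that commits acetyl-CoA to fatty acid synthesis (-0.85, SE 0.18), NPRL2, a subunit of the GATOR1 complex that inhibits the RAG GTPases (-0.56, SE 0.14), and EIF4B, an S6 kinase substrate that assists the initiation helicase (-0.43, SE 0.14). For ACACA the controls averaged -2.29 ± 0.06 (SD, n = 2), against -3.27 ± 0.25 (SD, n = 3) under EEF1D-1357 and -3.01 ± 0.24 (SD, n = 3) under EEF1D-1893. In all 8 genes every shRNA array was on the same side of both controls, and adjusted p-values ran from 0.139 for PIK3C2A to 0.225 for EIF4B. Without control replicate 1 the values were 0.28 for EIF4E, 0.24 for CAB39, 0.37 for LAMTOR3 and 0.39 for SLC38A9. They were -0.37 for NPRL2, -0.25 for EIF4B, -0.58 for PIK3C2A and -0.80 for ACACA. Without control replicate 2 the values were 1.11 for EIF4E, 0.81 for CAB39, 0.92 for LAMTOR3 and 0.71 for SLC38A9. For NPRL2, EIF4B, PIK3C2A and ACACA they were then -0.76, -0.60, -0.98 and -0.89. The 8 were picked for a small p in the fit with both controls, so these values are no separate support for them.

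A list of 34 genes known as FOXO targets had 30 measured genes, 4 with an unadjusted p under 0.05 (13.3% against 16.9% of all genes) and none past the adjusted threshold; the median was -0.03. The list holds 3 genes that are also among the 43. It was not split by whether FOXO factors raise or lower a gene, so the counts and the median give no direction of FOXO activity. FBXO32, the ubiquitin ligase atrogin-1, had a log2 fold change of -0.90 (SE 0.32, adjusted p = 0.246), CCND2, cyclin D2, one of -0.34 (SE 0.12), and BCL6, a transcriptional repressor, one of -0.37 (SE 0.14). ATG12, an autophagy conjugation protein, had 0.63 (SE 0.23). FBXO32 controls averaged 0.44 ± 0.14 (SD, n = 2), against -0.15 ± 0.66 (SD, n = 3) under EEF1D-1357 and -0.76 ± 0.22 (SD, n = 3) under EEF1D-1893. In these 4 genes too, the shRNA arrays did not overlap the controls. ATG12 was 0.19 without control replicate 1 and 1.08 (adjusted p = 0.0140) without control replicate 2. BCL6 was -0.59 without control replicate 1 and -0.15 without control replicate 2. FBXO32 and CCND2 moved by less than 1.5 times and did not pass without either control.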

How the data were processed

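Total RNA of 8 samples was labelled with Cy3 and read on one-colour Agilent arrays with 43653 probes. The deposited scanner files hold processed intensity values; per the file headers they came from Feature Extraction 10.7.3.1, while the submitters' processing notes name version 9.1. A deposited value table holds log2 values of the same arrays, with a median of 7.55 in every column and a correlation with the scanner values of 0.998 to 0.9999; it served as an alternative, and how it was made is not given in the sources used here.

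The log2 intensity was scaled to the 75th percentile of each array. Control spots and 215 outlier probes were left out, of which 2 belonged to members (TSC1 and FOXO4). A probe had to exceed background clearly (the scanner's own flag) on 2 or more arrays, and the brightest probe stood for a gene. All 8 arrays entered 1 limma fit (limma 3.58.1 in R 4.3.3; lmFit and eBayes, 5 residual and 2.12 prior degrees of freedom) with a mean for each of the 3 groups and 4 contrasts; p-values were adjusted by Benjamini-Hochberg over 12617 genes. Intervals are 95% intervals of that fit, and the number of arrays limits the precision. In simulated data with these group sizes, 48 of 100 genes at a log2 change of 1 were recovered for both shRNAs against control. At a change of 2, 80 of 100 were recovered, with 18 false calls among the genes left unchanged. The simulated noise was independent, with 1 spread per gene on all 8 arrays and no slide effect. In the data the 2 controls differed more (SD of the log2 difference over genes 0.83) than arrays of the same shRNA (0.50 to 0.73). Recovery in these data may therefore differ, which was not tested. Members and gene lists were chosen with earlier results of these data known. Names of genes that are not members came from RefSeq where an accession or symbol matched. Every member was accounted for; per-array values are given for members with an unadjusted p under 0.05 in any of the 4 contrasts and the member with the smallest p of each node, apart from a few others named for their probes after the values were seen. Of the other lists, up to 4 genes per direction with the smallest p are named. Alternatives covered background correction, normalization, the filter, the choice of probe, naming, the deposited table, the prior, array weights, replicate and slide blocks, the groups in the fit and each array left out.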

Additional observations from a re-analysis of the deposited data

How the results depend on the processing

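With 2 controls on separate slides, 8 arrays in all and a threshold over 12617 genes, small differences could not be told from the spread of the arrays; the arrays' number and, for PRKAA2 and PRKAB2, signal near background limit what can be read. No member passed the adjusted threshold under another background correction, normalization, filter, choice of probe, naming, prior, array weighting or set of groups; 3 passed for both shRNAs and 10 for EEF1D-1893 with slide as a block. With each array left out in turn, 0 to 12 members passed for both shRNAs, 0 to 10 for EEF1D-1357 and 0 to 10 for EEF1D-1893, all of them without control replicate 2.

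The count of members with an unadjusted p under 0.05 was less stable, and is given with the share of all genes in the same fit. For both shRNAs it was 11 (16.9% of all genes), against 7 with median scaling (16.9%), 3 with array weights (4.64%), 16 with slide as a block (29.1%) and 4 to 17 with 1 array left out (12% to 41.4%); it was 4 without control replicate 1 (16%) and 17 without control replicate 2 (41.4%). EEF1D-1357 gave 8 (16.2%), against 5 with normexp (15.7%), 3 with array weights (7.51%), 4 with slide as a block (14.1%), 4 with only the groups compared (10.6%) and 4 to 15 with 1 array left out (8.96% to 40.8%). EEF1D-1893 gave 8 (14.1%), against 5 with quantile normalization (14.6%), 5 with the deposited table (14.7%), 2 with array weights (4.29%), 20 with slide as a block (36.7%), 4 with only the groups compared (9.32%) and 4 to 20 with 1 array left out (9.39% to 36.7%). Between the shRNAs it was 2 (6.4%), against 8 with array weights (32.1%), 11 with slide as a block (26.3%), 5 with only the groups compared (13.9%) and 1 to 5 with 1 array left out (2.6% to 13.9%). With slide as a block, each shRNA is set against the control on its own slide. The comparison between the shRNAs then rests on those single controls and is not the direct difference given above. TSC2 by its description, an alternative chosen after seeing the data, made the count 12 of 37 for both shRNAs. The cause of these shifts was not tested.

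Samples share replicate numbers, but same-numbered arrays deviated together only weakly (correlations from -0.11 to 0.14), so the numbers were not taken to pair them. The replicate block gave 6 members with an unadjusted p under 0.05 for both shRNAs (17.6% of all genes), 5 for EEF1D-1357 (18.2%) and 4 for EEF1D-1893 (13.2%), none past the adjusted threshold, and AKT1S1 at 0.0246.

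EEF1D ran from -1.38 to -0.40 for both shRNAs, from -1.47 to -0.50 for EEF1D-1357 and from -1.28 to -0.31 for EEF1D-1893 with 1 array left out. Signs turned for PIK3R1 (0.0238) and IRS1 (-0.0438) with normexp, for AKT1S1 with quantile normalization (0.0023) and median scaling (0.0782), and with the mean of a gene's probes for IRS1 (-0.13), SGK1 (-0.10), GSK3A (0.12), FOXO3 (-0.64) and PRKAA1 (0.20). With 1 array left out 16 members turned sign: PIK3CB ran from -0.17 to 0.73, IRS1 from -0.23 to 0.40, AKT1 from -0.0718 to 0.41, SGK1 from -0.34 to 0.49, RICTOR from -0.19 to 0.70, MLST8 from -0.71 to 0.21, AKT1S1 from -0.44 to 0.44, RRAGC from -0.36 to 0.0165, RPS6KB2 from -0.37 to 0.14, EIF4EBP1 from -0.36 to 0.14, ULK1 from -0.12 to 0.16, FOXO3 from -0.40 to 0.58, PRKAA1 from -1.43 to 0.0772, PRKAB2 from -0.61 to 0.72, PRKAG1 from -0.35 to 0.15 and PRKAG2 from -0.21 to 0.66. FOXO1 stayed between -0.74 and -0.61, TSC1 between -0.71 and -0.49 and MTOR between -0.32 and -0.16 in all settings run.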
